A study of Rattus norvegicus with 18 samples.

Results

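Cholesterol is made in the liver from squalene by a chain of enzymes, and the transcripts of 9 of them were followed in rat liver. The members are Sqle (ENSRNOG00000009550), Lss, Cyp51, Msmo1, Nsdhl, Hsd17b7, Ebp, Sc5d and Dhcr7, taken by gene symbol from tables that hold 32623 genes for each rat. All 9 were among the 12904 genes with enough counts to be tested.

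Liver RNA of 18 male Wistar rats was sequenced, with 6 control, 6 NASH and 6 NASH-CH rats and a library for each rat. Control rats had standard chow and normal water for 12 weeks. NASH rats belong to the BarNa model of non-alcoholic steatohepatitis: they inhaled carbon tetrachloride (CCl4), a hepatotoxin, with phenobarbital in the drinking water for 6 weeks, and then received for another 4 weeks a diet rich in fat and cholesterol (HFCD). NASH-CH rats, the model of NASH with cirrhosis, had CCl4 and phenobarbital for 8 weeks and then HFCD together with CCl4 and phenobarbital for 16 weeks. The groups therefore differ at once in diet, CCl4, phenobarbital and duration, and the parts of these in a difference between groups cannot be told apart. These schedules are those of the study's methods. The design text of the series instead puts CCl4 beside the diet over all 10 weeks for NASH and 24 for NASH-CH, so the sources differ on whether NASH rats still had CCl4 while on the diet. No genotype or transgene differs between the groups.

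Expected counts summed to 19498516 to 27174006 per control rat, 20827733 to 29491895 per NASH rat and 44680345 to 60117806 per NASH-CH rat, and no member had fewer than 82 counts in any rat. Values below are CPM, counts relative to the total of their library, scaled between rats by the TMM method. They are not divided by transcript length, so levels are compared between rats and not between genes. Small non-coding RNA genes took 15.5 to 21.4% of counts in control, 14.2 to 16.6% in NASH and 10.7 to 12.7% in NASH-CH rats, and leaving these genes out changed no count of members that passed the test. All 8 hepatocyte markers were found, with a summed CPM of 121318 to 161859 in control, 85473 to 130314 in NASH and 63762 to 123955 in NASH-CH rats. NASH-CH rat 5 stood apart, with the lowest hepatocyte sum and the highest cholangiocyte sum (39.4, against 5.9 to 16.6 in the other NASH-CH rats), and values without it are given for the members in both NASH-CH comparisons. Most of the hepatocyte sum was albumin (Alb), whose mean was 105874 CPM for controls, 74893 for the NASH group and 71037 for NASH-CH. The sum therefore mainly follows this transcript and is not a measure of hepatocyte number. Against control, 4 of the 8 markers had log2 fold changes below 0 in each disease group, while Apob, Cyp2e1, Cps1 and Tat were above 0 in both. The RNA is from whole liver, so fewer hepatocytes and less RNA per hepatocyte cannot be told apart.

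In the pathway, squalene is first oxidized by squalene epoxidase (Sqle) and folded into lanosterol by lanosterol synthase (Lss). Lanosterol then loses its extra methyl groups, through Cyp51 and the complex of Msmo1, Nsdhl and Hsd17b7. Its ring double bonds are moved by Ebp, added to by Sc5d and reduced by Dhcr7 until cholesterol is left. When the endoplasmic reticulum is low in cholesterol, SCAP carries the transcription factor SREBP2 to the Golgi for cleavage, and the cleaved factor switches on these genes. When cholesterol is plentiful, INSIG proteins hold SCAP back.

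Promoters of the 5 members that passed the test in NASH are shown. The part of promoter sequence in the members' levels was not tested. Each is the 250 bases before the annotated start, read 5′ to 3′ on the gene's strand from RefSeq sequence of the GRCr8 assembly, which is a later build than the Rnor_6.0 of the counts. Capitals mark CCAAT boxes (CCAAT or its reverse complement ATTGG) and GC boxes (GGGCGG or CCGCCC), the motifs that SREBP2's usual partners NF-Y and Sp1 bind.
Lss: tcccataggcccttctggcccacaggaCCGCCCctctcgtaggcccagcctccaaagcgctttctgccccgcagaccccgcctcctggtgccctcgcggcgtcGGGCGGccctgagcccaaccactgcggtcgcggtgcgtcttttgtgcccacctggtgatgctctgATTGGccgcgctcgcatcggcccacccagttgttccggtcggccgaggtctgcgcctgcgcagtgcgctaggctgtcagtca
Cyp51: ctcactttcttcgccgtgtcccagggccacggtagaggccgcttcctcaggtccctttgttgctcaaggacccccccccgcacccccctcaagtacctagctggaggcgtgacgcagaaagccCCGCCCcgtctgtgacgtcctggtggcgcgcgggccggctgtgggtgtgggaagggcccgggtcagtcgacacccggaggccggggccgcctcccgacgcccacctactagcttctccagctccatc
Nsdhl: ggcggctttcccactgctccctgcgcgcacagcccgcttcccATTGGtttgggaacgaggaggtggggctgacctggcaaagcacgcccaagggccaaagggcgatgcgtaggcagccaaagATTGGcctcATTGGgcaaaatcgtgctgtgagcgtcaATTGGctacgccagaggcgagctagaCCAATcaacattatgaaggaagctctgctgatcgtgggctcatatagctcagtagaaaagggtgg
Sc5d: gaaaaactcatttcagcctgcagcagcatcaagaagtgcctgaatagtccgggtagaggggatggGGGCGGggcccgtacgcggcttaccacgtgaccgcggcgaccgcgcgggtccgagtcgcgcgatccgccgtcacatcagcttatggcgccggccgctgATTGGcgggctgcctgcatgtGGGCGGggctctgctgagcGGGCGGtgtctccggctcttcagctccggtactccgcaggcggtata
Dhcr7: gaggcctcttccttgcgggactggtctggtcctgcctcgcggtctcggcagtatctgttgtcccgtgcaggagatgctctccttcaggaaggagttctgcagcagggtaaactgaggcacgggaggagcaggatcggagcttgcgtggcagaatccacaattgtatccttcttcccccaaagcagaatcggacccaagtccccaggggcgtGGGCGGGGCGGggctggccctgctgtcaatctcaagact
The windows are chr20:12118231-12118480 (minus strand) for Lss, chr4:30991443-30991692 (plus) for Cyp51, chrX:155817110-155817359 (plus) for Nsdhl, chr8:51538278-51538527 (minus) for Sc5d and chr1:208444184-208444433 (plus) for Dhcr7. A promoter was found for 8 of the 9 members, with Sqle the exception. A GC box was in 7 of the 8 windows, Nsdhl being the one without, and in 30.5% of all 33469 rat promoters of the same length. A CCAAT box was in 6 of the 8, all but Cyp51 and Dhcr7, and in 34.0% of all promoters. The Nsdhl window held 5 CCAAT boxes, and the Dhcr7 window held 2 GC boxes that share a base. The sterol regulatory element spelled TCACNCCAC (either strand) was in 0 of the 8 and in 0.974% of all promoters. At so low a share, 0 matches is the usual count for any 8 promoters, and other spellings and positions of the element were not searched. Matches of different motifs did not overlap in these windows, and a match is a description of letters and not a bound site.

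Transcripts of the pathway after squalene were lower in NASH than in control liver. Log2 fold changes were below 0 for all 9 members, with a median of -1.26 against 0.01 over all genes tested, and 5 members fell past the test: Dhcr7, Nsdhl, Lss, Sc5d and Cyp51 (limma-voom, Benjamini-Hochberg adjusted over all genes, threshold 0.05). The background was 1.54% of tested genes called lower in NASH. The members were chosen with earlier results of these data known, so the contrast with all genes is a description. At an unadjusted p under 0.05 all 9 were lower, against 11.0% of tested genes. In 4 members (Lss, Cyp51, Sc5d and Dhcr7) every NASH rat lay below every control rat, which held for 1.39% of tested genes. NASH-CH rats lay between the other groups in mean CPM for every member.

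**Figure D1:**
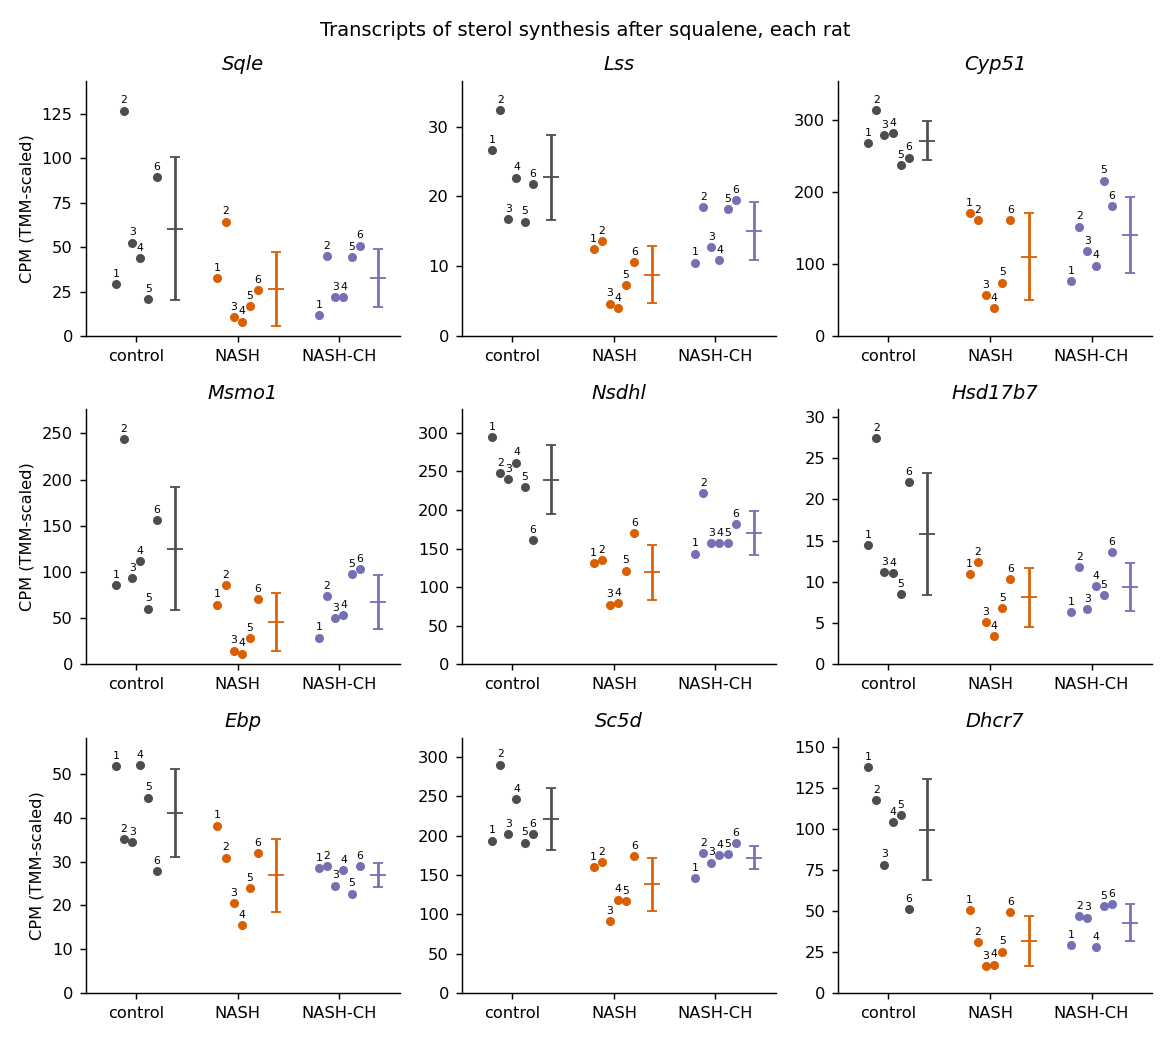
CPM (TMM-scaled, linear axes from 0) of each member in each rat, in the order of the pathway, with control, NASH and NASH-CH along the x axis. Points are rats with their number, and the bar beside each group is the mean ± SD (n = 6). For Lss, Cyp51, Sc5d and Dhcr7 all NASH points sit below all control points, and NASH rats 3, 4 and 5 are the lowest NASH rats in every panel.

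The first steps use oxygen and close the rings. Sqle, the epoxidase that is a point of control of the pathway, ran from 20.8 to 126.8 CPM in control rats (median 48.3), from 8.05 to 64.4 in NASH (median 21.3) and from 11.7 to 50.8 in NASH-CH (median 33.2). The control rats themselves spanned 6.1-fold, more than for any other member, and the 3 groups overlapped. Its log2 fold change in NASH of -1.26 (SE 0.51) did not pass (adjusted p = 0.155), with a 95% interval of -2.32 to -0.20.

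Lss, which cyclizes oxidosqualene to lanosterol, ran from 16.4 to 32.4 CPM in control (median 22.2) and from 3.94 to 13.6 in NASH (median 8.97). The highest NASH rat was thus below the lowest control rat, and Lss was 2.8-fold lower in NASH (log2 fold change -1.49, SE 0.28, adjusted p = 0.011). NASH-CH rats ran from 10.5 to 19.5 CPM (median 15.4), with 3 of 6 below all controls.

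Demethylation of lanosterol begins with Cyp51, a cytochrome P450 that is the target of azole antifungals in its fungal form. Control rats were close together, at 237.9 to 314.6 CPM (median 274.1), with a coefficient of variation of 10.1%, the lowest of the 9 members in that group. NASH rats ran from 38.4 to 170.6 CPM (median 117.5) and NASH-CH rats from 76.4 to 216.2 (median 135.0), so that neither group reached the controls. Within NASH the rats fell apart into 3 at 38.4, 57.0 and 74.2 CPM and 3 at 160.8, 161.2 and 170.6 CPM. Cyp51 was 2.86-fold lower in NASH (log2 fold change -1.52, SE 0.34, adjusted p = 0.0245).

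Msmo1, Nsdhl and Hsd17b7 encode the oxidase, the decarboxylating dehydrogenase and the ketone reductase that strip the remaining methyl groups in turn. Msmo1 ran from 60.4 to 243.7 CPM in control (median 102.6), from 11.8 to 85.6 in NASH (median 46.6) and from 29.0 to 103.4 in NASH-CH (median 63.6). The oxidase had the second largest log2 fold change of the 9 in NASH, at -1.65, but also one of the largest errors (SE 0.48), and its adjusted p was 0.0633. Rats of all groups overlapped, and the lowest control, rat 5, lay below 3 of the 6 NASH rats.

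Nsdhl, whose loss causes a skin and limb disorder in humans, ran from 161.4 to 294.9 CPM in control (median 244.1), from 77.5 to 170.3 in NASH (median 126.3) and from 143.5 to 222.3 in NASH-CH (median 157.0). Only NASH rat 6 reached into the control range, above control rat 6. Nsdhl was 2.07-fold lower in NASH (log2 fold change -1.05, SE 0.18, adjusted p = 0.00731).

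Hsd17b7, which also converts estrone to estradiol, was at 8.48 to 27.4 CPM in control (median 12.9), 3.44 to 12.4 in NASH (median 8.54) and 6.3 to 13.6 in NASH-CH (median 8.94). Groups overlapped, and its log2 fold change in NASH was -0.98 (SE 0.33, adjusted p = 0.1). Its expected counts were not whole numbers in 7 of 18 rats, which marks reads shared with other genes, so its level is less certain than that of the other 8 members, whose deposited values had no fractional part in any rat (a tolerance of 0).

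The last steps set the double bonds. Ebp, the isomerase that moves the ring double bond, ran from 27.8 to 52.1 CPM in control (median 39.9), from 15.5 to 38.2 in NASH (median 27.4) and from 22.7 to 28.9 in NASH-CH (median 28.2). Its difference was the smallest of the 9 in NASH, at -0.64 on the log2 scale (SE 0.19), and the adjusted p was 0.0713. The NASH-CH rats were close together, with a coefficient of variation of 9.85%, whereas control rats spread by 24.6%.

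Sc5d, the lathosterol desaturase, ran from 191.2 to 290.4 CPM in control (median 202.2), from 91.4 to 173.6 in NASH (median 139.5) and from 146.3 to 190.7 in NASH-CH (median 176.3). Both disease groups lay wholly below the controls, by a narrow gap in NASH-CH (190.7 against 191.2 CPM). Although its change in NASH was small, at 1.62-fold lower (log2 fold change -0.70), its spread was small too, and it passed (SE 0.15, adjusted p = 0.0201).

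Dhcr7 encodes the last reductase, which makes cholesterol from the precursor that skin also turns into vitamin D. It ran from 51.2 to 137.7 CPM in control (median 106.2), from 16.2 to 50.5 in NASH (median 28.2) and from 28.1 to 54.1 in NASH-CH (median 46.3). Dhcr7 had the largest fall of the 9 members in NASH, to 31.7% of the control mean, and was 3.35-fold lower by the fit (log2 fold change -1.74, SE 0.30, adjusted p = 0.00597). Control rat 6 was the lowest control at 51.2 CPM, 0.313 of the control range below the next, and the highest NASH rat came close to it.

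Leaving out rats one at a time left Dhcr7, Nsdhl and Lss past the test in all 18 fits. The Cyp51 call was lost without control rat 1 (adjusted p = 0.0573), control rat 3 (0.0572), control rat 4 (0.0555), NASH rat 3 (0.0655) or NASH rat 5 (0.0553), and the Sc5d call without control rat 4 (0.0543) or NASH rat 5 (0.0507). Ebp passed without control rat 6 (0.026) or NASH rat 1 (0.0486), and Msmo1 without NASH rat 2 (0.0421) or NASH rat 6 (0.0459). DESeq2 called 8 of the 9 lower, all but Sqle. Hepatocyte marker sums of 5 of the 6 NASH rats were below those of every control rat. Over the 8 markers the median log2 fold change was -0.07, with 1 higher (Cyp2e1) and 1 lower (Apoa1) past the test. Among the 12904 tested genes, 204 were called higher and 199 lower in NASH. The part of hepatocyte content in the members' difference was not tested.

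**Figure D2:**
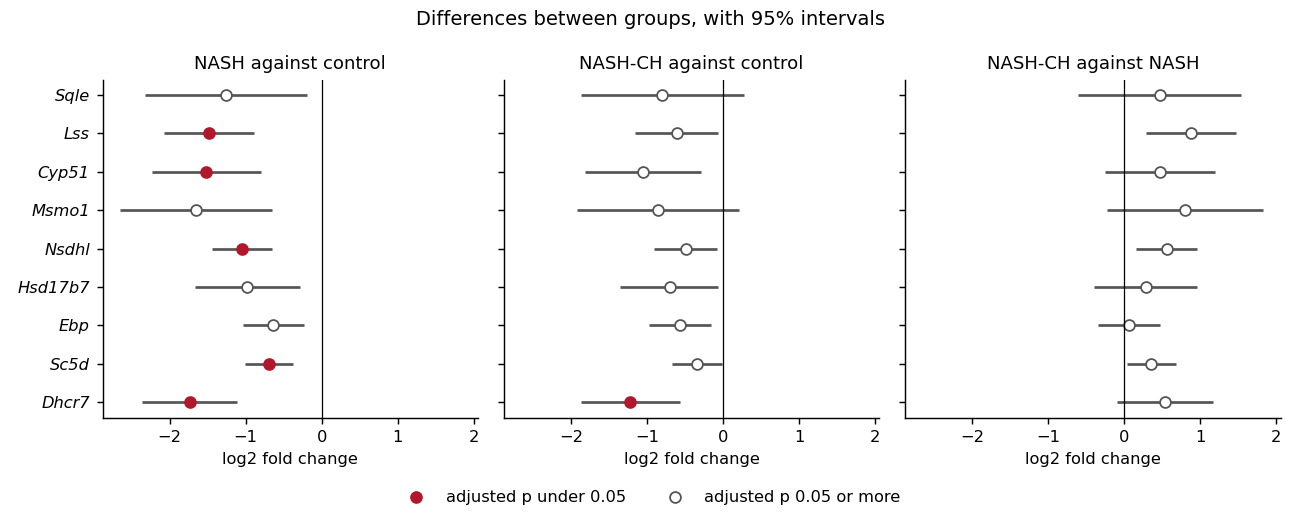
Log2 fold change of each member (x axis) in the 3 comparisons, with 95% intervals from the limma-voom fit of all 18 rats (filled points, adjusted p under 0.05; open points, 0.05 or more). All 9 lie below 0 in NASH and in NASH-CH against control, with 5 and 1 filled, and all 9 lie above 0 in NASH-CH against NASH, with none filled.

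The members were low in the same NASH rats. NASH rats 3, 4 and 5 were the 3 lowest of their group for 9 of the 9 members, and each was below every control rat for all 9. In the median over members, NASH rat 4 was at 17.3% of the control mean, NASH rat 3 at 21.0% and NASH rat 5 at 32.2%. By the same measure NASH rat 1 was at 54.9%, NASH rat 6 at 59.3% and NASH rat 2 at 68.3%. Msmo1 was the lowest member in rats 3, 4 and 5, at log2 ratios to the control mean of -3.07, -3.40 and -2.13. For Sqle, by contrast, NASH rat 2 was slightly above the control mean (log2 ratio 0.09).

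Mitochondrial genes took 18% of counts in NASH rat 3, 18.9% in rat 4 and 18.5% in rat 5, and 14.8, 16.5 and 16.3% in rats 1, 2 and 6. Hepatocyte marker sums did not divide the rats in this way, at 99394, 85473 and 113130 CPM in rats 3, 4 and 5 and at 130314, 98815 and 107380 in rats 1, 2 and 6. The part of either in the members' levels was not tested.

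Control rats had an order of their own. Control rat 5 was the lowest control for 6 members (Sqle, Lss, Cyp51, Msmo1, Hsd17b7 and Sc5d) and control rat 6 for the other 3 (Nsdhl, Ebp and Dhcr7). Control rat 6 was at the same time the second highest control for Sqle, Msmo1 and Hsd17b7, below control rat 2. In NASH-CH, rat 1 was the lowest for 7 members and rat 6 the highest for 7, with medians over members of 39.9 and 82.5% of the control mean. NASH-CH rat 5, which stood apart in its markers, was at 73.6%.

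**Figure D3:**
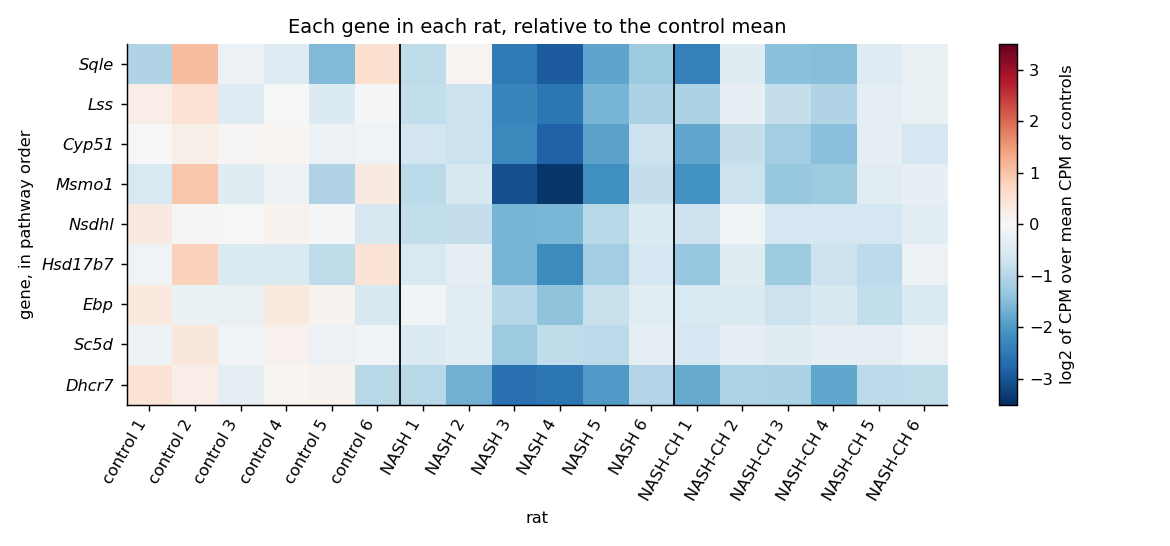
Log2 ratio of each member's CPM (rows, in pathway order) to its mean over the 6 control rats, for each of the 18 rats (columns), with blue below and red above that mean. The columns of NASH rats 3, 4 and 5 are the darkest blue, down to -3.40 for Msmo1 in NASH rat 4, and NASH-CH rat 1 is the darkest of its group.

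In NASH-CH livers the members were again below control, by less. Comparisons of NASH and of NASH-CH with control share the same 6 control rats and are not independent. All 9 log2 fold changes in NASH-CH were below 0, with a median of -0.70 against 0.01 over all genes, and 1 member, Dhcr7, fell past the test, where 8.60% of tested genes were called lower. At an unadjusted p under 0.05, 7 members were lower (all but Sqle and Msmo1), against 15.6% of tested genes. Every NASH-CH rat was below every control rat for Cyp51 and Sc5d, which held for 3.46% of tested genes.

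Dhcr7 was 2.32-fold lower in NASH-CH than in control (log2 fold change -1.22, SE 0.31, adjusted p = 0.0124), and it passed in all 18 fits that left out a rat. Its 6 NASH-CH rats were at 43.0% of the control mean, and the 2 highest of them, at 52.7 and 54.1 CPM, overlapped control rat 6 only. Ebp was just short of the threshold at -0.57 on the log2 scale (SE 0.20, adjusted p = 0.0505), and so was Cyp51 at -1.05 (SE 0.36, adjusted p = 0.0533).

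Of the other 6, Nsdhl differed from control by a log2 value of -0.49 (adjusted p = 0.0927) and Lss by one of -0.61 (0.12). For Hsd17b7 it was -0.70 (0.123), for Sc5d -0.34 (0.144), for Msmo1 -0.85 (0.262) and for Sqle -0.80 (0.301). The intervals of Msmo1 (-1.92 to 0.21) and Sqle (-1.87 to 0.28) include both no difference and a fall as large as that fitted for NASH.

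Which members passed beside Dhcr7 turned on the fit and on which rats entered it. Without NASH-CH rat 5 the median of the members was -0.68 and Cyp51 passed as well (adjusted p = 0.032), and without control rat 6 Ebp (0.0212) and Nsdhl (0.0389) did. Cyp51 also passed without NASH rat 1 (0.0468), 3 (0.0482) or 4 (0.0224), and Ebp without NASH rat 1 (0.0394) or 4 (0.0254). These rats are in neither group of this comparison and enter it only through the filter, the scaling and the estimate of spread that all rats share. The edgeR quasi-likelihood test called 3 members (Cyp51, Ebp and Dhcr7), and DESeq2 called those and Nsdhl. Over the 8 hepatocyte markers the median log2 fold change in NASH-CH was -0.09, with 1 higher and 3 lower. Stellate cell markers (8 of 9 found) summed to 278.4 to 424.8 CPM, against 277.3 to 369.7 in control, and of the 8, Col1a1 (log2 fold change 1.02), Tagln (0.97) and Des (0.65) rose and Lrat (-0.68) fell. Of 9 macrophage markers 2 rose, Gpnmb by 3.11 and Trem2 by 4.78, and 4 fell, among them Cd163 (log2 fold change -0.48). Trem2 was near 0 in control, with a mean of 0.00826 CPM against 0.758 in NASH-CH, so its ratio is uncertain. Of 6 endothelial markers 2 rose, Vwf by 1.13 and Cd34 by 0.96. Among all tested genes, 8.38% were called higher and 8.60% lower in NASH-CH. The part of these cell types in the members' difference was not tested.

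Against NASH, the members were higher in NASH-CH in value but none passed. All 9 log2 fold changes were above 0, with a median of 0.47 against 0.01 over all genes, and limma-voom, edgeR and DESeq2 each called 0 members, where limma-voom called 1.81% of tested genes higher. At an unadjusted p under 0.05 limma-voom had 3 members higher, against 9.08% of tested genes. These were Lss at 0.88 (95% interval 0.29 to 1.47, adjusted p = 0.0885), Nsdhl at 0.56 (0.16 to 0.96, adjusted p = 0.116) and Sc5d at 0.35 (0.03 to 0.68, adjusted p = 0.24). Without NASH-CH rat 5 the median was 0.34 and again 0 members were called. For Dhcr7 the log2 fold change was 0.53 (interval -0.10 to 1.16) and for Ebp 0.06 (-0.34 to 0.47). In order of mean CPM each member therefore ran from control through NASH-CH to NASH, but NASH-CH and NASH, the lower neighbours in that order, were not told apart by the adjusted test for any member, and the Ebp means were nearly equal (26.9 and 26.8 CPM).

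The steps that lead to squalene showed lower transcripts as well. Of 10 genes listed for the mevalonate pathway, which builds squalene from acetyl units, 9 fell in NASH and 0 rose, with a median log2 fold change of -1.78. In NASH-CH 7 fell and 0 rose, with a median of -1.30. Among all tested genes, 1.54% were called lower in NASH and 8.60% in NASH-CH. Between NASH-CH and NASH limma-voom called 0 of the 10, as did edgeR and DESeq2, and 2 were higher at an unadjusted p under 0.05. The list, like the members, was drawn up with earlier results of these data known, so its direction is a description.

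Aacs, which activates ketone bodies for lipid synthesis, had the largest fall of the list in NASH, from 10.5 ± 5.56 CPM in control to 1.20 ± 0.468 (mean ± SD, n = 6). Its log2 fold changes were -3.07 (SE 0.44, adjusted p = 0.00265) in NASH and -3.06 (SE 0.36) in NASH-CH. Mvd, the decarboxylase that makes isopentenyl pyrophosphate, went from 13.9 ± 3.53 to 2.65 ± 1.43 CPM (log2 fold change -2.56, SE 0.43). Acat2 (thiolase) fell by 2.54 on the log2 scale in NASH, Fdps (farnesyl pyrophosphate synthase) by 2.01 and Idi1 (isopentenyl pyrophosphate isomerase) by 1.97.

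Hmgcs1, an early synthase of the pathway, fell by 1.59 and Pmvk, a kinase, by 1.43. Fdft1, which makes squalene itself, fell by 1.33, from 150.4 ± 25.5 to 65.9 ± 28.4 CPM, and Mvk, the other kinase, by 0.88. Aacs, Mvd, Acat2, Pmvk and Fdps passed in NASH in all 18 fits that left out a rat. The calls of Hmgcs1 (13 fits), Mvk (8), Idi1 (6) and Fdft1 (2) were lost in some, with adjusted p of up to 0.116, 0.109 and 0.0796 without NASH rat 3 and 0.053 without control rat 1. Those of Hmgcs1 and Mvk were also lost with library size only (0.0737 and 0.118) and with no filter on low counts (0.0691 and 0.0597).

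In NASH-CH the same genes except Fdft1 (-0.73, adjusted p = 0.104) and Mvk (-0.39, adjusted p = 0.177) passed. Of these, Hmgcs1 (adjusted p of up to 0.0744, without NASH-CH rat 4) and Fdps (up to 0.0832, without control rat 1) lost the call in 9 and 8 of the 18 fits. Both also lost it with library size only (0.0804 and 0.0587).

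Ggps1, which leads from farnesyl units to protein prenylation and away from squalene, did not pass in either comparison. NASH rats 3, 4 and 5 were the 3 lowest of their group for 8 of these 10 genes, all but Ggps1 and Aacs.

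**Figure D4:**
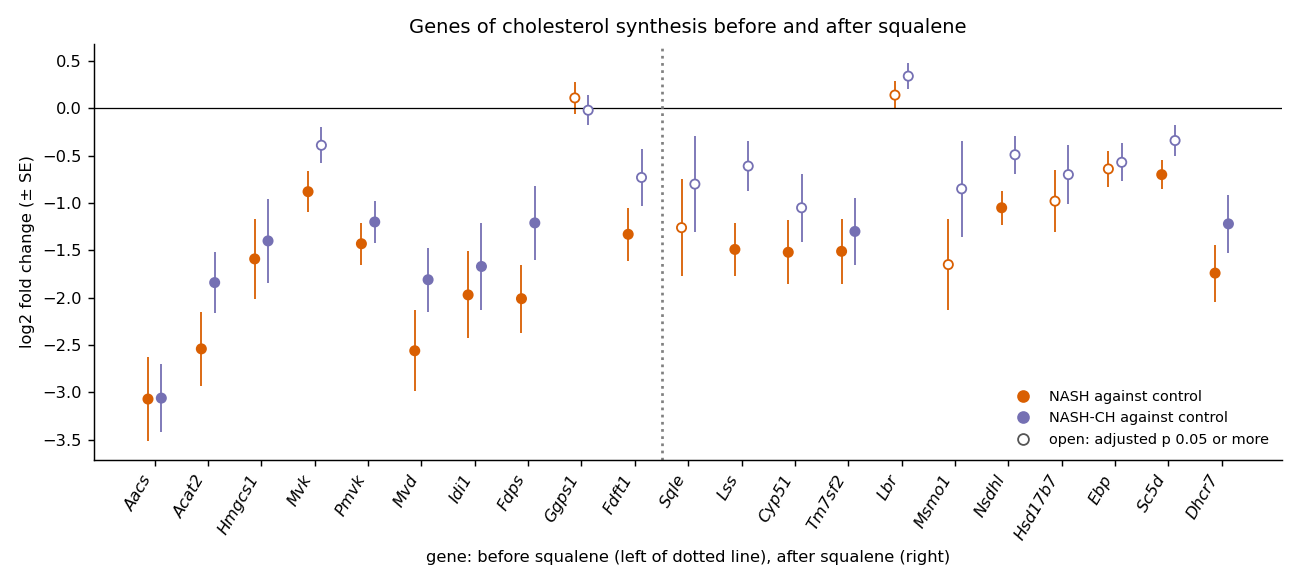
Log2 fold change ± SE (y axis) against control in NASH (orange) and NASH-CH (purple) for 21 genes of cholesterol synthesis, with genes before squalene left of the dotted line and genes after it on the right. Filled points passed the test (adjusted p under 0.05). Values run down to -3.07 for Aacs, while Ggps1 and Lbr stay near 0 with open points in both.

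Among the other enzymes after squalene, 3 of 4 listed were found (Erg28 was not). From these 3, 1 fell in NASH and 1 in NASH-CH, where 1.54% and 8.60% of all tested genes were called lower. Tm7sf2, a sterol reductase that follows Cyp51, averaged 61.4 ± 15.7 CPM over control rats, 24.7 ± 14.1 over NASH rats and 25.8 ± 11.7 over NASH-CH rats. It fell by 1.51 on the log2 scale in NASH (SE 0.34, adjusted p = 0.0259) and by 1.30 in NASH-CH (SE 0.35, adjusted p = 0.0162). Lbr, a protein of the inner nuclear membrane with the same reductase activity, was at 3.54, 3.88 and 4.49 CPM in the means of the groups and did not pass (log2 fold changes 0.14 and 0.34). The Tm7sf2 call in NASH was lost without control rat 1, 4 or 5 or NASH rat 3 or 5, with adjusted p of up to 0.0658.

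Sqle, Cyp51, Msmo1, Sc5d and Dhcr7 draw electrons from partners such as Por, cytochrome b5 and its reductase. Of 9 listed partners, 1 fell in NASH and 2 in NASH-CH, with medians of -0.03 and -0.18. Called lower were 1.54% of all tested genes in NASH and 8.60% in NASH-CH. Limma-voom and edgeR called 0 higher in either, where 1 and 2 were higher at an unadjusted p under 0.05, and DESeq2 called Cyb5a and Por higher in NASH-CH and Cyb5b lower in NASH. Pgrmc2, a haem-binding membrane protein, fell in both, from 43.4 ± 6.79 CPM in control to 31.3 ± 4.21 in NASH and 31.6 ± 3.76 in NASH-CH (log2 fold changes -0.47 and -0.45). The other was its relative Pgrmc1, named here after its value was seen, with a log2 fold change of -0.39 in NASH-CH. Scaled by library size only, Pgrmc2 was at -0.24 (adjusted p = 0.145) and -0.19 (0.166) and Pgrmc1 at -0.13 (0.306), and the calls were lost. The Pgrmc1 call was also lost with the 2 groups fitted alone (0.0552), with the replicate number as a block (0.0602) and without control rat 4 or 5 or NASH-CH rat 6. Por, the reductase that serves all microsomal cytochromes P450, was above control in value, by 0.63 on the log2 scale in NASH (adjusted p = 0.169) and by 0.77 in NASH-CH (adjusted p = 0.0608). The Pgrmc2 call in NASH was lost in 8 of the 18 fits without a rat (adjusted p of up to 0.0796, without NASH rat 3). It was also lost with no filter on low counts (0.0511).

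Few genes that sense sterols passed the test. Of 10 listed, limma-voom and edgeR called 0 in NASH, where 2 were lower and 1 higher at an unadjusted p under 0.05 and DESeq2 called Insig1 lower and Ncor1 higher. In NASH-CH 2 of the 10 rose, where 8.38% of all tested genes were called higher. The median log2 fold changes were -0.13 in NASH and 0.06 in NASH-CH. Srebf2, which encodes SREBP2, averaged 41.2 ± 8.84 CPM over control rats, 33.3 ± 10.2 over NASH rats and 46.6 ± 18.3 over NASH-CH rats (log2 fold changes -0.35 and 0.13, adjusted p = 0.385 and 0.741). Scap had log2 fold changes of -0.24 and -0.16, with adjusted p of 0.16 and 0.313.

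Insig1, which is itself switched on by SREBP2, was at 874.9 ± 221.5 CPM in control and 500.9 ± 187.4 in NASH, with 5 of 6 NASH rats below all controls. Its log2 fold change of -0.85 (SE 0.24) had an adjusted p of 0.0579, and in NASH-CH the value was -0.44 (adjusted p = 0.238). The 2 that rose in NASH-CH were Mbtps1, the Golgi protease that makes the first cut in SREBP2, by 0.28 (SE 0.09, adjusted p = 0.0363), and the corepressor Ncor1, named after its value was seen, by 0.25. Both calls were lost with the 2 groups fitted alone (0.0749 and 0.0753) and with the replicate block (0.0626 and 0.0761). They were also lost with small RNA genes left out (0.0514 and 0.0545). The Mbtps1 call was lost in 7 of the 18 fits that left out a rat and the Ncor1 call in 10, with adjusted p of up to 0.0997 and 0.101 without control rat 3.

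Other genes listed as SREBP2 targets include some that serve the uptake and transport of cholesterol, and some with other roles, such as Rdh11, Lpin1 and Mmab. Of 7 tested, 2 fell in NASH, where 1.54% of all tested genes were called lower. In NASH-CH limma-voom and edgeR called 0 (1 lower at an unadjusted p under 0.05, and 1, Rdh11, by DESeq2). Rdh11, a retinol dehydrogenase, fell from 39.2 ± 10.6 to 21.0 ± 5.41 CPM in NASH (log2 fold change -0.90, SE 0.18, adjusted p = 0.0144). The second was Tmem97, named after its value was seen, at -0.96, a call lost in 6 of the 18 fits (adjusted p of up to 0.0723, without NASH rat 3).

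The genes whose pattern over the rats was most like that of the members were sought among all tested genes. The measure was the Pearson correlation of log2 CPM with the mean standardized level of the 9 members, over 18 rats that share their libraries across genes. The 5 most alike were Mvk (0.98), Fdft1 (0.97), Fdps (0.97), Acat2 (0.96) and Mvd (0.95). With each group's mean subtracted the same 5 genes led, with Mvk at 0.98, Fdft1 at 0.94, Acat2 at 0.93, Fdps at 0.92 and Mvd at 0.90. Among the members themselves, which are part of the mean, the value ran from 0.79 (Ebp) to 0.97 (Lss and Cyp51), and within groups from 0.64 (Ebp) to 0.97 (Lss).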

How the data were processed

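RNA of whole liver was measured by RNA-Seq (TruSeq stranded mRNA library kit per the labels) in 18 rats. The authors aligned reads to Rnor_6.0 with STAR, quantified genes of Ensembl release 95 with RSEM and deposited expected counts per gene and rat, not normalized. Versions of these tools are not given in the sources used here.

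Expected counts were rounded, as in the study's methods, and filtered by filterByExpr (12904 of 32623 genes left), scaled with TMM factors (edgeR 4.0.16) and passed to voom of limma 3.58.1, run under R 4.3.3; all 18 rats entered 1 model. P-values were adjusted by the Benjamini-Hochberg method over all genes tested, at a threshold of 0.05. DESeq2 1.42.0 and edgeR's quasi-likelihood test were alternatives. Promoter sequence is RefSeq's (GRCr8).

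All 9 members, the called genes of the mevalonate list and of the other enzymes after squalene, Srebf2, Insig1 and Scap, and of each other list the called gene with the largest moderated t were named. Exceptions were named after their values were seen. Some listed genes are not reported here, and counts and medians of the lists leave them out. The members and the 8 lists were chosen with earlier results of these data known.

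Totals per rat ran from 19498516 to 60117806 expected counts and give counting error only. No rat was left out. Rats of a group differed by more than counting error (smallest chi-square per degree of freedom 28.3). Sample titles give each group the numbers 1 to 6, and no source pairs rats with the same number.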

Additional observations from a re-analysis of the deposited data

Results flagged for a closer look

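In 3 of the 84 sets of 6 rats examined (the 28 named genes in each group), the highest rat stood apart from its group by more than Dixon's critical share of the group's range, a gap that chance gives in about 1 in 20 sets. None of the 9 members was among these sets. In NASH this was Aacs at 2.14 CPM in rat 1. In NASH-CH they were Tm7sf2 at 49.1 CPM in rat 1, and Srebf2 at 82.5 CPM in rat 6. NASH-CH rat 1 was at the same time the lowest of its group for 7 of the 9 members. NASH-CH rat 6 was the highest of its group for 7 members. The cause was not tested.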

How the results depend on the processing

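In NASH against control, members called numbered 5 with edgeR's quasi-likelihood test, 8 with DESeq2, 4 with library size only and 7 with sample quality weights, and 3 to 6 without any single rat. In NASH-CH against control, where 1 member was called, the count was 3 with edgeR, 4 with DESeq2, 2 with DESeq2 size factors in limma-voom, 3 with no filter on low counts, 3 with the 2 groups fitted alone, 3 with sample quality weights, 2 with NASH-CH counts thinned to the depth of the other groups, and 1 to 3 without any single rat. Between NASH-CH and NASH 1 member (Lss) was called with no filter. The signs of all 9 members against control were the same in every setting tried. Values that changed sign were those of Ebp between NASH-CH and NASH without NASH rat 4 (-0.09, over a range of -0.09 to 0.18 without any single rat), Srebf2 in NASH-CH without NASH-CH rat 6 (-0.05, over a range of -0.05 to 0.22), and Scap (0.10) in NASH-CH with library size only. Library size only shifted the median over all genes, to 0.23 for NASH and 0.27 for NASH-CH, with members at -1.28 and -0.70 relative to it, and it turned the split of all called genes from 204 higher and 199 lower to 785 and 80 in NASH, from 1082 and 1110 to 2781 and 489 in NASH-CH, and from 234 and 308 to 119 and 248 between them.

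Of all genes, 403 were called in NASH against control, 652 with edgeR, 1228 with DESeq2, 865 with library size only, 268 with no filter, 644 with the groups alone, 1509 with sample quality weights and 128 to 982 without any single rat. In NASH-CH 2192 were called, 2449 with edgeR, 2841 with DESeq2, 5495 with no filter and 1408 with the groups alone. Between NASH-CH and NASH 542 were called, 949 with DESeq2, 2649 with no filter, 349 with the groups alone and 272 without 7SK, SRP and other small RNA genes, an alternative chosen after seeing the data. In that setting the members called were those of the fit reported above.

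With the replicate number as a block, 7 members were called in NASH, 3 in NASH-CH (Cyp51, Hsd17b7 and Dhcr7) and 1 (Lss) between them. The numbers are only labels: deviations of same-numbered rats correlated at -0.119 to 0.171, over 0.1 in 3 of 18 pairs. The causes of these shifts were not tested. Depth limits the genes left out by the filter on low counts, and no member had fewer than 82 counts in any rat.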

Other observations

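Some lipid genes beside the sterol pathway were also lower in NASH. Of 9 listed genes of fatty acid synthesis under SREBP1, the relative of SREBP2 that drives lipogenesis, limma-voom called 4 lower in NASH and 2 in NASH-CH, and 0 higher in either (0 at an unadjusted p under 0.05, and 0 by edgeR and DESeq2), with median log2 fold changes of -2.08 and -1.10. Limma-voom called 1.54% of all tested genes lower in NASH and 8.60% in NASH-CH. In NASH edgeR called 6 and DESeq2 7 of the list lower. In NASH-CH edgeR called 3 (Me1, Scd and Pnpla3) and DESeq2 4 (these and Acly). Me1, the malic enzyme that supplies NADPH, fell by 1.60 in NASH (SE 0.31, adjusted p = 0.011) and by 1.10 in NASH-CH (SE 0.29, adjusted p = 0.014), from 28.7 ± 11.2 CPM in control to 9.01 ± 2.86 and 12.5 ± 3.76 (mean ± SD, n = 6). The others, named after their values were seen, were Scd (-4.47), Acly (-2.11) and Acaca (-1.09) in NASH and Elovl6 (-2.29) in NASH-CH. Elovl6 was low throughout, with a mean of 1.72 CPM in control and 0.48 in NASH-CH, so its ratio is uncertain. The Acly call was lost in 8 of the 18 fits that left out a rat (adjusted p of up to 0.092, without NASH rat 3) and the Acaca call in 12 (up to 0.107). The Acaca call was lost with library size only (0.0553) and with no filter (0.0707). The Elovl6 call was lost with edgeR (0.0795), DESeq2 (0.0548), the 2 groups alone (0.0749), sample quality weights (0.062), the replicate block (0.0612) and thinned counts (0.0782), and in 5 of the 18 fits, with 0.0892 without NASH-CH rat 5. Scd was spread over 204.8 to 5723.6 CPM in the control rats.

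Cholesterol efflux is driven by LXR, the receptor for oxidized sterols. The list of LXR targets and efflux genes also holds the LXR genes Nr1h3 and Nr1h2 themselves. Nr1h4, Soat1 and Soat2, also on it, have other roles. Of 11 tested genes of this list, limma-voom and edgeR called 0 in NASH, where 1 was higher and 1 lower at an unadjusted p under 0.05 and DESeq2 called Lpcat3 lower. In NASH-CH 2 rose, where 8.38% of all tested genes were called higher, 2 were lower at an unadjusted p under 0.05, and DESeq2 called Nr1h2 lower. Abcg1, an exporter of cholesterol, went from 4.55 ± 1.11 CPM in control to 6.73 ± 1.11 in NASH-CH (log2 fold change 0.57, SE 0.14, adjusted p = 0.0118). The second was Mylip, named after its value was seen, at 0.58. Its call was lost in 15 of the 18 fits (adjusted p of up to 0.129, without control rat 4, and 0.074 without NASH-CH rat 5). It was also lost with the 2 groups alone (0.099) and with small RNA genes left out (0.0553).

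Of 7 tested genes listed for the use of cholesterol, most turn it into bile acids or other products, though Hmgcll1 does not. Limma-voom and edgeR called 0 of the 7 in NASH (2 higher and 1 lower at an unadjusted p under 0.05, and Cyp7b1 higher by DESeq2). In NASH-CH 1 rose and 1 fell, where 8.38% of all tested genes were called higher and 8.60% lower. Cyp7b1, an oxysterol hydroxylase, averaged 5.39 ± 2.36 CPM over control rats, 11.7 ± 2.71 over NASH rats and 26.4 ± 13.9 over NASH-CH rats, and its log2 fold change in NASH-CH was 2.23 (SE 0.35, adjusted p = 0.000305). The gene that fell was Hsd3b7, named after its value was seen, at -0.53, a call lost without control rat 1 (adjusted p = 0.0557), with library size only (-0.28, 0.17), with the 2 groups alone (0.0561) and with sample quality weights (0.0506).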
